A study of Mus musculus with 10 samples.

Results

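Heat shock proteins and chaperonins were examined in cells sorted from the dermis of P4 mouse backskin, across 5 populations with 2 arrays each. The 69 genes were chosen by symbol alone: every gene of the array whose symbol begins with Hsp (Hspg2, a proteoglycan, excepted), with Dnaj or with Cct and a digit from 2 to 8, out of 12393 named genes. All mice were 4 days old and carried the Lef1-RFP and K14-H2BGFP transgenes, the first driven by a human Lef1 promoter fragment and the second by the keratin 14 promoter. Mx (hair follicle matrix) and ORS (outer root sheath) were sorted as GFP-low and GFP-high cells without RFP. DP (dermal papilla) were the RFP-high and DF (dermal fraction) the RFP-negative cells, both without GFP and both after depletion of cells with CD117, CD45 or CD34. Mc (melanocytes) were RFP-high cells carrying CD117, labeled separately. Backskins were pooled for each isolation, and every population passed through dispase, collagenase and trypsin before sorting.

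Heat shock proteins are molecular chaperones that bind unfolded proteins. HSP70 proteins hold and release their clients in an ATP cycle that J-domain (Dnaj) proteins start and nucleotide exchange factors end, HSP90 completes the folding of kinases and receptors, and small heat shock proteins keep unfolded proteins soluble. CCT, the cytosolic chaperonin, is a double ring of Cct subunits that folds actin and tubulin. Some of these genes are expressed at a steady level, while others are induced within minutes by heat and other protein-damaging stress through heat shock factor 1, which binds repeats of the heat shock element. The endoplasmic reticulum and the mitochondrion have chaperones of their own, and those of the endoplasmic reticulum are induced by the unfolded protein response.

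Elements known for the 2 kinds of inducible control were searched for in the promoters, and stretches upstream of the start sites are shown for members that carry the letters (RefSeq, GRCm38.p6, 5′ to 3′ on the strand of the gene, element in capitals). For 57 of the 69 genes a window of 250 bases before to 50 after the start was matched, 73 windows in all. On either strand, a heat shock element of 2 units (GAANNTTC) was found in 15 of these windows and in 7.86% of all 32851 windows, and one of 3 units (GAANNTTCNNGAA, which contains the shorter form) in 6 and in 0.603%. The longer form was found in the windows of Hsph1, Dnajb6, Hspd1 and Hspe1. For Hsph1 and for Dnajb6 overlapping windows of different starts held the same site, so the windows with a match outnumber the sites. The shorter form was found for 13 genes, with Cct2, Dnaja1 and Hspb8 among those outside the stress-inducible list. Among the stress-inducible genes Hspa1a, Hspa1b and Hspb1 had the shorter form upstream of the start, Hsph1 had the longer one just after a start, and Dnajb1 had no match in its windows. Hspd1 and Hspe1, which encode the 2 parts of the mitochondrial chaperonin, lie head to head and share a single stretch in which 2 elements of 3 units overlap, printed on the strand of Hspe1. The stretch of Hspa1a, at chr17:34972233-34972280 on the minus strand, and that of Hspa1b, at chr17:34959315-34959362 on the minus strand, were identical. The others lie at chr5:135887782-135887849 on the plus strand (Hspb1) and chr1:55088039-55088096 (Hspe1).
Hspa1a: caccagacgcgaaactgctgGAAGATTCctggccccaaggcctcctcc
Hspa1b: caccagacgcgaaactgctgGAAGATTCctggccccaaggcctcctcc
Hspb1: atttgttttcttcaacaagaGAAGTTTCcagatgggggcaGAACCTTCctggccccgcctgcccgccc
Hspe1: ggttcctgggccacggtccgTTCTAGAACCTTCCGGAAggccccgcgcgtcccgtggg

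The endoplasmic reticulum stress element (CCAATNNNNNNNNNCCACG on either strand) was found in 0.119% of all windows and in those of 3 members, Hspa5, Hsp90b1 and Dnajc3, all of which encode chaperones of the endoplasmic reticulum. The stretches are at chr2:34772005-34772063 on the plus strand (Hspa5), chr14:118937807-118937865 on the plus strand (Dnajc3) and chr10:86705513-86705676 on the minus strand (Hsp90b1), where the second element is in reverse orientation. A match describes the letters only and shows no binding.
Hspa5: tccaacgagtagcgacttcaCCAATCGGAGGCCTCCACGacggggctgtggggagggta
Dnajc3: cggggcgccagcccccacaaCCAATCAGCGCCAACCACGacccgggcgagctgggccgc
Hsp90b1: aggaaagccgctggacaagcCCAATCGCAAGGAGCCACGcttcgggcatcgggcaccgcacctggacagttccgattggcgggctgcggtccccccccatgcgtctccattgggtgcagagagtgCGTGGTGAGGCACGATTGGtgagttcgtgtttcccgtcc

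Values are MAS 5.0 signals on a linear scale, as deposited by the authors, and a gene with several probe-sets is shown by the brightest of them on average. The trimmed mean signal over all probe-sets ran from 162 to 196 between arrays, against the target of 500 in the methods, and replicate arrays correlated at 0.971 to 0.982. One chip lot supplied 6 arrays, both of Mx among them, while each other population had an array in either lot. Markers fitted the sorts in part. Hair shaft and inner root sheath genes were higher in Mx (8 of 8, 22.2% of all tested genes) and epithelial genes in ORS (6 of 6, 18%). Dermal papilla genes were higher in DP (6 of 6 tested, 21.5%) and melanocyte genes in Mc (7 of 7, 16.1%). Fibroblast genes did not set DF apart, with 6 of 7 higher in DF (21.2%) and 6 also in DP (21.5%). Between these populations 2 were higher and 2 lower in DP. Dcn was highest in Mx at 4725 and 3052, against 1326 and 1914 in DF. However, the summed signal of 7 melanocyte genes reached 23716 and 14221 in DP and 12495 and 3771 in DF, against 29908 and 31985 in Mc and 411 to 863 in Mx and ORS. Hair shaft and inner root sheath genes summed to 1416 in DF replicate 1 but 7386 in DF replicate 2. Their sums were 4358 and 6541 in ORS and 29686 and 25273 in Mx. Epithelial genes likewise summed to 964 and 1986 in the DF arrays. DF also held the highest summed signal of smooth muscle and pericyte, endothelial and red cell genes. The red cell sum came mostly from Alas2, at 3462 and 4266 in DF. Slc4a1 was also highest in DF, at 162 and 234, while Hba-a1 and Epb42 stayed near the floor on every array. In sorted bulk RNA, fewer cells that express a gene and less RNA per cell cannot be told apart.

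Of the 69 members 25 were too dim to test, and those tested differed among populations about as often as genes in general. Genes were tested where both arrays of at least 1 population reached a signal of 200, by a limma model of log2(signal + 50) that covered the 10 arrays together, and called at an adjusted p under 0.05 (Benjamini-Hochberg over all tested probe-sets). This bound was passed by 44 members, and 29 reached it in all 5 populations. Of the 44, 31 differed among the 5 populations (70.5%, against 70.4% of 5266 tested genes). Since members passed through the populations in which they are high, these counts are descriptions of the 44 and not of the 69. Folds and log2 differences are on the log2(signal + 50) scale, which understates the change of dim genes, and errors are standard errors of the fit.

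Against the mean of the other 4 populations, chaperone genes leaned to Mx. There 19 of 44 were higher (22.2% of all tested genes) and 6 lower (34.8%). In ORS 5 were higher (18%) and 2 lower (16.5%), and in DF 4 were higher (21.2%) and 4 lower (9.17%). In DP 3 were higher (21.5%) and 13 lower (16.6%), and in Mc 4 were higher (16.1%) and 13 lower (29.6%). The share of members lower in Mc was thus at the background, whereas that of members higher in Mx and lower in DP was above it. After rescaling of the arrays to a common trimmed mean the split was 26 higher and 4 lower in Mx and 3 and 5 in DF, and after quantile normalization it was 6 and 14 in DP. Single arrays carried some of these counts: without DP replicate 2, 3 members were called in DP, and 10 without DP replicate 1. Without either Mc array 11 or 10 were called in Mc, without DF replicate 1, 2 in DF, and without ORS replicate 1, 3 in ORS. Each comparison uses all 10 arrays, so the 5 are not independent of each other. Under these scalings the median difference of all genes at a mean signal of 200 moved from -0.13 to -0.01 or -0.01 in Mc and from -0.08 to 0.01 or 0.03 in Mx.

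The stress-inducible genes were bright in every population but stood lowest in Mc. Hspb1, a small heat shock protein, had signals of 6993 and 4148 in Mx, 4945 and 4204 in ORS, 4532 and 3421 in DF, 2136 and 1265 in DP and 437 and 404 in Mc. Its Mc arrays lay below all others and its DP arrays below those of Mx, ORS and DF. Hspb1 was 7.67-fold lower in Mc than in the mean of the rest (log2 -2.94 ± 0.22, adjusted p = 5.4e-07), and higher in Mx (log2 1.47, adjusted p = 0.000134), ORS (1.18, 0.00115) and DF (0.92, 0.00748). It was also lower in DP (-0.63, 0.0433), a call lost in 11 of the 18 alternatives, without DP replicate 2 (adjusted p = 0.546) and under quantile normalization (0.134) among them, while the call in DF was lost without DF replicate 1 (0.135).

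Hspa1a and Hspa1b, near-identical neighboring copies of the inducible HSP70, share most of their sequence, so their probe-sets cannot be taken to measure them apart. Hspa1a had signals of 3801 and 2604 in Mx, 3702 and 2560.4 in ORS, 3757 and 3129 in DF, 2992 and 3235 in DP and 1087 and 762 in Mc. The Mc arrays were again below all the rest, which overlapped each other. The difference in Mc was 3.37-fold (log2 -1.75 ± 0.20, adjusted p = 1.26e-05). A call of Hspa1a as higher in DF (log2 0.57, adjusted p = 0.046) was lost in 11 of the 18 alternatives, with adjusted p of up to 0.34 (without DF replicate 1). Hspa1b had 5410.1 and 3536 in Mx, 4391 and 3721 in ORS, 4248 and 4279 in DF, 3785 and 4962 in DP and 2415 and 2226 in Mc, and was 1.82-fold lower in Mc (log2 -0.86 ± 0.18, adjusted p = 0.00155). The other 2 tested probe-sets of Hspa1b fell in Mc as well, with log2 differences of -1.23 and -0.88.

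Dnajb1, the J-domain partner of the inducible HSP70, reached 1219 and 699 in Mx, 1601 and 1247 in ORS, 895 and 748 in DF, 1144 and 1114 in DP and 414 and 378 in Mc. It was highest in ORS (log2 0.84 ± 0.19, adjusted p = 0.00397; 0.0914 without ORS replicate 1) and 2.47-fold lower in Mc (log2 -1.30 ± 0.19, adjusted p = 0.000108). Hsph1, an HSP110 exchange factor, had 1211 and 689.6 in Mx, 1047 and 462 in ORS, 1397 and 677 in DF, 684 and 444 in DP and 398 and 297 in Mc. Replicate 1 of Mx, ORS and DF stood well above replicate 2, and the Mc arrays were the lowest. Its call in Mc (log2 -1.05 ± 0.31, adjusted p = 0.0156) was lost without Mc replicate 2 (0.161) and with no signal filter (0.0862). Hsp90aa1, the inducible HSP90, overlapped between populations, from 1723 in the second replicates of DP and Mc to 3667 in Mx replicate 1, and did not pass the test in any comparison by this probe-set (log2 -0.38 ± 0.20 in Mc, adjusted p = 0.141). Another of its probe-sets passed as higher in Mx (log2 0.46, adjusted p = 0.0307).

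**Figure D1:**
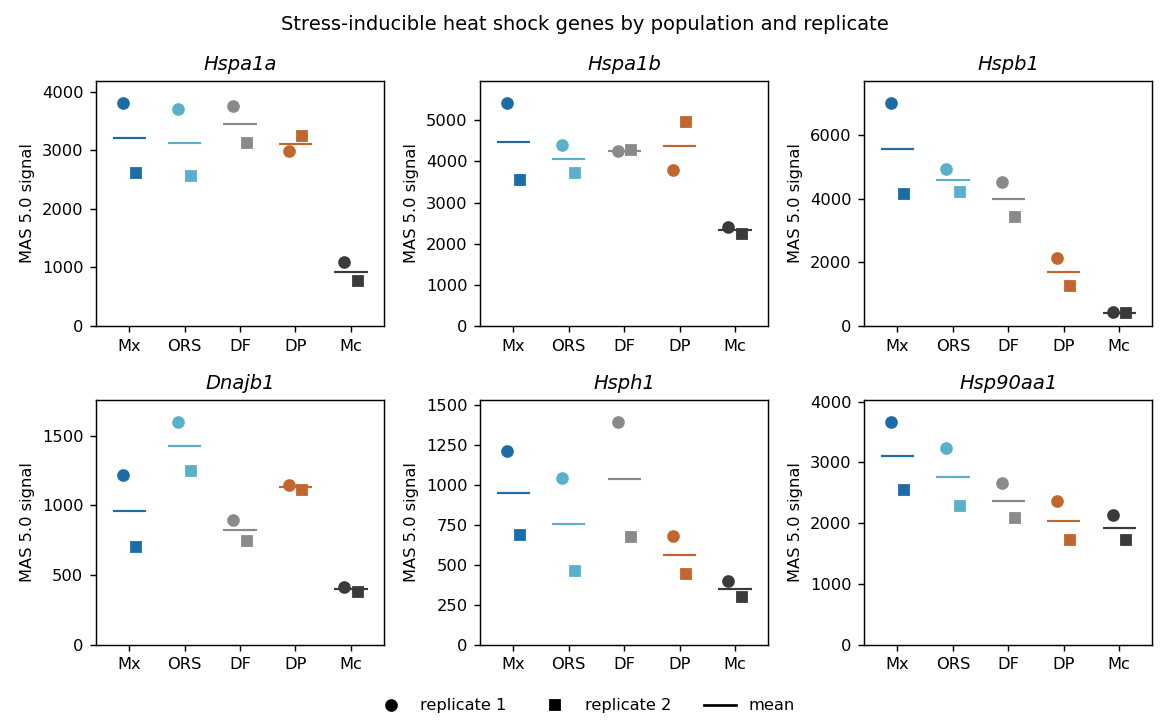
MAS 5.0 signal (linear, from 0) of the 6 stress-inducible genes in each population; circles are replicate 1, squares replicate 2 and lines the mean of the 2. The Mc arrays are the lowest for all genes shown except Hsp90aa1, for which the second replicates of DP and Mc are equal at 1723, and replicate 1 often lies above replicate 2.

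As a group 5 of the 6 stress-inducible genes fell in Mc (29.6% of all tested genes). Hspa1a and Hspa1b are counted separately here, although their probe-sets cannot be taken to measure them apart. The median difference of the 6 there was -1.18 on the log2 scale, against -0.13 over 4209 genes with a mean signal of at least 200. Under quantile normalization the median in Mc was -1.07, and after rescaling -1.06. The calls of Hspb1, Hspa1a, Hspa1b and Dnajb1 in Mc held under all 18 alternatives, and within each chip lot the difference of Hspb1 was -3.06 in one lot and -2.57 in the other. For Hspa1a it was -1.59 in one lot and -1.89 in the other. Mc were labeled and sorted apart from the others, so population and sort cannot be told apart. The same holds between Mx and ORS, sorted by GFP and RFP, and DP and DF, sorted after depletion of labeled cells. Immediate early genes, which are induced within minutes of handling, were low in the Mc arrays too. Their summed signal over 18 genes was 7602 and 7367 in Mc and 19587 to 35372 in the other populations. In Mc 15 of 16 tested were lower (29.6% of all tested genes) and none was higher (16.1%), though Fos still had 1672 and 1697. The part of the immediate early genes in the difference of the heat shock genes was not tested. Melanocyte genes were high in Mc and also in DP, where the median of the stress-inducible genes was -0.02 (0.19 under quantile normalization). Hspb1 was called lower in DP (log2 -0.63), a call lost in 11 of the 18 alternatives. The part of melanocyte RNA in these values was not tested.

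The stress-inducible genes also differed between replicates, and in Mx and ORS more than any other chaperone group. Relative to the mean of all arrays, their median level was 0.61 and 0.06 in the first and second replicate of Mx, 0.60 and 0.01 in ORS, 0.38 and 0.11 in DF, 0.03 and -0.05 in DP and -0.82 and -1.06 in Mc (log2). In replicate 1, 6 of 6 were higher in Mx, ORS and Mc, 5 in DF and 4 in DP. The median difference between the replicates was 0.68 in Mx and 0.42 in ORS, against -0.17 and -0.01 over all genes. The 100 brightest probe-sets held 16.6% of the signal in Mx replicate 1 and 12.2% in replicate 2, and 10.9% and 12.3% in ORS. Under quantile normalization the median of the stress-inducible genes in Mx over the other populations was 0.18, against 0.43 without it. The part of the signal distribution in the replicate differences was not tested. In ORS, DF, DP and Mc the replicates also came from different chip lots, which therefore cannot be told apart from the preparation, while both Mx arrays shared a lot. No test compared the groups, since they share all arrays.

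**Figure D2:**
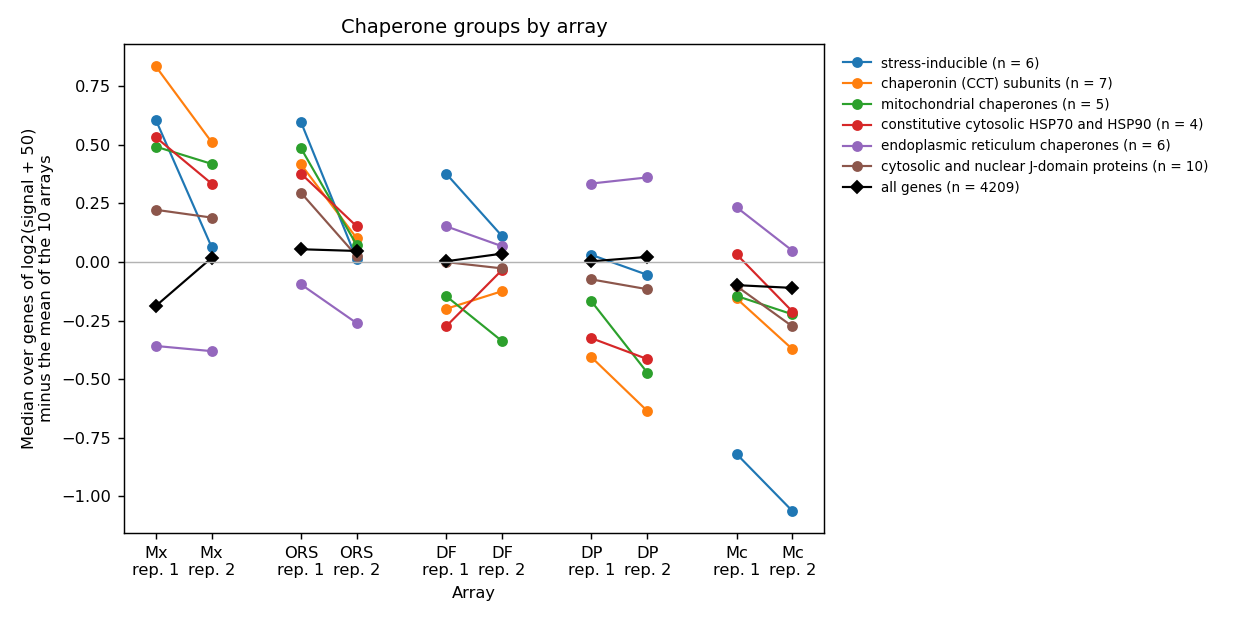
Median over the genes of each chaperone group of log2(signal + 50) minus that gene's mean over the 10 arrays (y axis), by array (x axis), for genes with a mean signal of at least 200; lines join the 2 replicates of a population. The stress-inducible genes lie at -0.82 and -1.06 in Mc, and chaperonin subunits are highest in Mx and lowest in DP.

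Inducible genes were then set against a preset partner from outside the stress-inducible list on the same array, as the log2 difference of the pair centred over the 10 arrays. The partners Dnaja1 and Hspb8 also had the shorter heat shock element in their windows. Hspb8 (log2 -0.88), Hspa8 (-0.64) and Dnaja1 (-0.46) were themselves lower in Mc, while Hspa4 was not (0.20). For Hspb1 over Hspb8 the Mc arrays stood at -1.49 and -1.80 and the other 8 arrays between -0.88 and 1.39. For Hsph1 over Hspa4 the values were -0.91 and -1.09 in Mc and -0.73 to 1.47 elsewhere, and for Dnajb1 over Dnaja1 -0.77 and -0.58 against -0.24 to 0.67. In these pairs the inducible partner was relatively lowest in both Mc arrays. Hspa1a over Hspa8 gave -0.85 and -0.94 in Mc against -0.16 to 0.84. By contrast Hspa1b over Hspa8 overlapped, at -0.32 and -0.04 in Mc and -0.22 to 0.86 in the rest. Both pairs with Hspa8 used its brightest probe-set. Its other probe-sets gave log2 differences in Mc of -0.44, -0.09 and -2.01, the last of them beyond that of Hspa1a (-1.75). The Hspa1a result thus depends on the probe-set of Hspa8. Since all pairs share the arrays they are described and not tested.

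Among constitutive cytosolic members the picture was mixed. Hspa8 (Hsc70), the steady HSP70 of the cytosol, had 6319 and 4389 in Mx, 5188 and 4841 in ORS, 5226 and 4588 in DF, 3949 and 3028 in DP and 3380.1 and 2554 in Mc. It was lower in Mc (log2 -0.64 ± 0.18, adjusted p = 0.0114), and the arrays of Mc and DP overlapped. Its probe-sets disagreed, with log2 differences in Mc of -0.44, -0.09 and -2.01 for the other 3, and the call was lost without Mc replicate 2 (adjusted p = 0.207) and under quantile normalization (0.123). Hspa2, an HSP70 best known from the testis, was dim but ordered: 294 and 389 in Mx, 129 and 229 in DF, 126 and 139.9 in ORS, 100.2 and 108 in DP and 59.2 and 68.8 in Mc. Only the Mx arrays stood above all others and only those of Mc below. It was 2.38-fold higher in Mx (adjusted p = 7.44e-05) and 1.95-fold lower in Mc (0.000616). DF replicate 2, the higher of the DF arrays for Hspa2, also held the higher hair shaft and inner root sheath sum, whose part was not tested.

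Hspa4, an HSP110 protein that exchanges the nucleotide of HSP70, was higher in Mx (log2 0.51 ± 0.16, adjusted p = 0.014) and ORS (0.54, 0.0169) and lower in DF (-0.51, 0.0267) and DP (-0.74, 0.00276). Its signals were 553 and 679 in Mx, 706 and 551 in ORS, 320 and 335 in DF, 315 and 253 in DP and 546 and 471 in Mc, so that DF and DP lay apart from the rest. A second tested probe-set passed in DF alone (log2 -0.71, adjusted p = 0.0146) and gave 0.03 in Mx and -0.08 in DP. Each call of Hspa4 was lost without some array of its own population, in Mx without replicate 2 (adjusted p = 0.106), in ORS without replicate 1 (0.259), in DP without replicate 2 (0.0742) and in DF without either (0.177 and 0.107). The call in DF was also lost without DP replicate 1 (0.0545) or Mc replicate 1 (0.0538). Hspbp1, another exchange factor, was lowest in DP at 125 and 148 (log2 -0.56 ± 0.14, adjusted p = 0.00814) and highest in Mx at 306 and 261 (adjusted p = 0.0112), calls lost without DP replicate 1 (0.114) and Mx replicate 1 (0.081). Of the 5 tested constitutive genes 4 were higher in Mx (22.2% of all tested genes) and 2 lower in Mc (29.6%). Their differences in Mc ran from -0.97 (Hspa2) to 0.20 (Hspa4), with Hspa14 in the middle at -0.40.

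**Figure D3:**
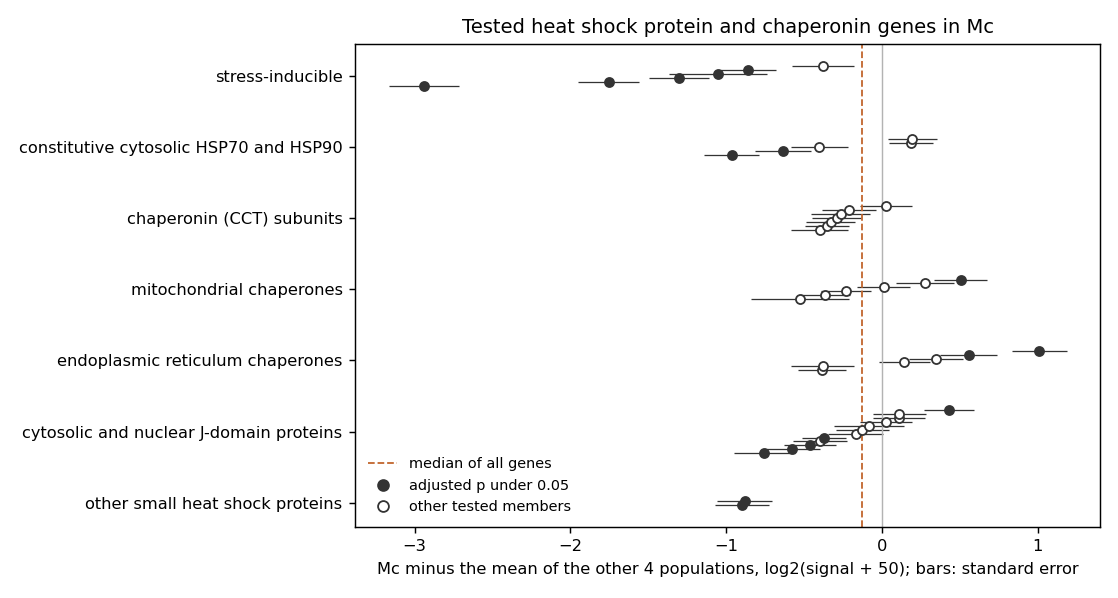
Difference of Mc from the mean of the other 4 populations (x axis, log2(signal + 50), bars are standard errors) for the 44 tested members, by group (y axis); filled circles have an adjusted p under 0.05 and the dashed line is the median of all genes at -0.13. Of the 6 stress-inducible genes 5 are filled and lie to the left of every chaperonin subunit, which are all open.

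By the brightest probe-set of each gene, the subunits of the cytosolic chaperonin were high in Mx and low in DP. All 7 tested subunits differed among populations (70.4% of all tested genes), all 7 were higher in Mx (22.2%) and all 7 lower in DP (16.6%). Their median differences were 0.80 in Mx and -0.64 in DP (log2), against -0.08 and 0.02 over all genes. None was called in ORS or Mc, and Cct8 alone was lower in DF. Of 10 other tested probe-sets of these genes 7 were higher in Mx and 4 lower in DP, and 6 did not pass in DP. Those 6 included all 3 others of Cct4 (log2 -0.26, -0.16 and -0.11), while one of Cct7 was also higher in ORS (0.77, adjusted p = 0.0128) and lower in DF (-0.69, 0.0263). Cct6b, a testis form, was near the floor on all arrays (4.7 to 37.8) and was not tested. Cct2 had 4859 and 3235 in Mx, 3156 and 2396 in ORS, 1919.9 and 1651 in DF, 1544 and 1401 in DP and 2264 and 1623 in Mc. Both Mx arrays were above all others and both DP arrays below. It was 2.03-fold higher in Mx (adjusted p = 0.000624) and 1.66-fold lower in DP (0.00971), whereas another of its probe-sets passed in neither (log2 0.45 in Mx and -0.12 in DP).

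In the other subunits Mx was also highest by its mean, while the lowest arrays belonged to DP, DF or Mc. Cct8 went from 889.7 and 906 in Mx and 829.5 and 568 in ORS to 612 and 521 in Mc, 348 and 452 in DF and 383 and 367 in DP (log2 0.81 ± 0.17 in Mx and -0.64 in DP). Cct5 had 2857 and 2116 in Mx and 1166 and 976 in DP, with ORS and DF overlapping (1815 and 1501 in ORS, 1589.9 and 1621 in DF) and Mc below both at 1365 and 1278. Cct3 had 3664 and 2917 in Mx and 1519 and 1289 in DP, where the lower Mc array, at 1497, lay between the DP arrays. Another bright probe-set of Cct3 showed neither difference (log2 0.22 in Mx and 0.01 in DP), while its other 2 tested probe-sets passed in both. Between Mx and ORS no subunit was called, with a median difference of 0.40.

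In Mx the calls of Cct2, Cct3, Cct5, Cct7 and Cct8 held under all 18 alternatives, whereas those of Cct4 and Cct6a were lost without Mx replicate 1 (adjusted p = 0.112 and 0.0562). In DP 3 of 7 remained called without DP replicate 1 and 0 without DP replicate 2, so the DP calls rest on both arrays. Without DP replicate 2 the differences ran from -0.70 to -0.33, all still below 0. Genes of S phase and mitosis were also high in Mx and lowest in DP, but unlike the chaperonin their highest sum was in ORS. Their summed signal over 11 genes was 13970.1 and 11339 in Mx, 15979.8 and 12777 in ORS, 7791 and 7422 in DF, 4549.9 and 4296 in DP and 6317 and 5891 in Mc. In Mx 10 of 11 were higher (22.2% of all tested genes), and in DP 10 were lower (16.6%). Of the 11, 10 were also called higher in ORS (18% of all tested genes) and 8 lower in Mc (29.6%). No chaperonin subunit was called there by its brightest probe-set, but their medians went the same way. These were 0.34 in ORS and -0.29 in Mc, against 0.07 and -0.13 over all genes. The part of the S phase and mitosis genes in the chaperonin values was not tested.

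**Figure D4:**
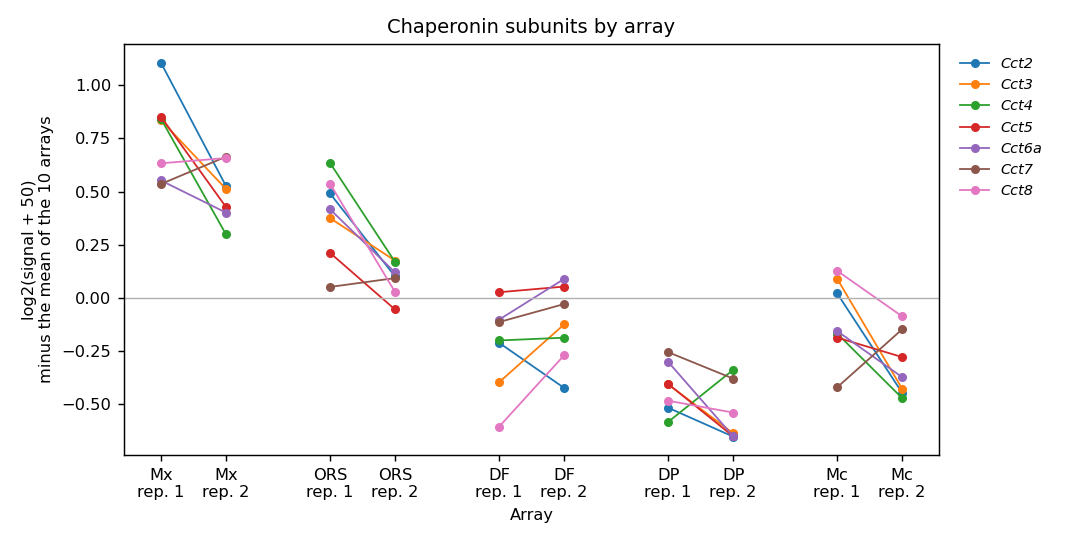
log2(signal + 50) of the 7 tested chaperonin subunits minus each gene's mean over the 10 arrays (y axis) by array (x axis); lines join the 2 replicates of a population. All 7 subunits lie above 0 in both Mx arrays and below 0 in both DP arrays.

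Of 6 tested mitochondrial chaperones 3 were also higher in Mx (22.2% of all tested genes). Hspd1, the subunit of the mitochondrial chaperonin ring, had 2143 and 2198 in Mx, 2305 and 2026 in ORS, 1469 and 1280.1 in DF, 1496 and 1043 in DP and 1470.2 and 1389.7 in Mc. The 4 epithelial arrays stood above the other 6. Hspd1 passed as higher in Mx (log2 0.50 ± 0.16, adjusted p = 0.0162) and ORS (0.49, 0.0285) and as lower in DP (-0.46, 0.0362), calls that were lost in 4, 6 and 7 of the 18 alternatives. The highest adjusted p were 0.0702 in Mx (quantile normalization), 0.248 in ORS (without ORS replicate 1) and 0.491 in DP (without DP replicate 2). Hspe1, its lid, encoded head to head with it, had a similar order but replicates that differed more, with 3943 and 1623 in Mx and 1477 and 878 in DP, and did not pass (log2 0.75 ± 0.32 in Mx, adjusted p = 0.0581). Its other tested probe-set gave a like difference in Mx and passed (log2 0.74, adjusted p = 0.0198). In every population replicate 1 of Hspe1 was above replicate 2.

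Hspa9, the mitochondrial HSP70, was higher in Mx at 813 and 827 (log2 0.63 ± 0.16, adjusted p = 0.00541) under all 18 alternatives and lower in DP at 437 and 408 (-0.47, 0.0377), the latter lost in 7 of the alternatives, with adjusted p of up to 0.224 (without DP replicate 2). Dnajc15, a J-domain protein of the inner membrane, had another order: 603 and 391 in Mx and 415 and 449.6 in Mc, then 327 and 320.4 in ORS, 255 and 213 in DP and 161 and 210.2 in DF. It was higher in Mx (adjusted p = 0.00365) and Mc (0.0275) and lower in DF (0.003), and these were lost without Mx replicate 1 (0.0764), either Mc array (up to 0.19) and DF replicate 1 (0.0764). Neighbors in the order, Mx and Mc, overlapped.

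Among chaperones of the endoplasmic reticulum none was higher in Mx. Of the 6 tested, 3 were lower in Mx (34.8% of all tested genes), 2 higher in DP (21.5%) and 2 higher in Mc (16.1%), with medians of -0.38, 0.35 and 0.24. Hspa5 (BiP), the HSP70 of this compartment, had 2660.4 and 2517 in Mx, 3291 and 2917 in ORS, 4056 and 3507 in DF, 5216 and 4230 in DP and 2989 and 2318 in Mc. DP was highest on both arrays. In Mc, Hspa5 (log2 -0.39, adjusted p = 0.0613) and Hsp90b1 (-0.38, 0.141) had values below 0, unlike the other 4. Hspa5 was 1.56-fold higher in DP (adjusted p = 0.00634; 0.119 without DP replicate 1), and a lower value in Mx (log2 -0.42, adjusted p = 0.0365) was lost in 9 of the 18 alternatives, with adjusted p of up to 0.137 after rescaling.

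Dnajc3, a J-domain protein of the endoplasmic reticulum that also inhibits the kinase PERK, differed in steps across the populations: 112 and 183 in Mx, 261 and 233 in ORS, 264 and 319.6 in DF, 427 and 421 in DP and 484 and 683 in Mc. Only ORS and DF, neighbors in this order, were close, at 233 to 320. It was 2.14-fold lower in Mx (adjusted p = 0.000207) and 2.01-fold higher in Mc (0.000438), both under all 18 alternatives, and its other 2 tested probe-sets passed in both. A call in DP (log2 0.51, adjusted p = 0.0376) was lost in 8 of them (up to 0.174, without either DP array). Dnajc10, a disulfide reductase, had 348 and 499 in Mx and 582 to 884 elsewhere, with both Mx arrays below the rest (log2 -0.78 ± 0.17, adjusted p = 0.00163). Dnajb9 was lowest in ORS at 289.8 and 223 (log2 -0.62 ± 0.17, adjusted p = 0.0142; 0.18 without ORS replicate 2), overlapping with Mx at 441 and 266. Dnajb11 reached 449.7 and 266 in Mc, and its call there (adjusted p = 0.0254) was lost without Mc replicate 1 (0.474). Hsp90b1, with 2 stress elements in its promoter window, was not called in any population by its brightest probe-set (lowest adjusted p 0.141, in Mc), while its other one passed as higher in DP (log2 0.42, adjusted p = 0.0426). A second probe-set of Dnajc10 passed in DP as well (0.51, 0.0208).

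The 2 members at least 2-fold above each of the other 4 populations were small heat shock proteins, against 12.3% of all tested genes. Hspb8, which acts with the cochaperone BAG3, had 742 and 616 in Mx, 204 and 174 in ORS, 155 and 238 in DF, 154 and 234 in DP and 110.2 and 135 in Mc. Mx stood apart and the other populations overlapped save for Mc. It was 3.28-fold higher in Mx (log2 1.71 ± 0.18, adjusted p = 6.72e-06) and lower in Mc (-0.88, 0.00139), and the other 2 tested probe-sets passed in both. Hspb2, a small heat shock protein of muscle, had 528 and 601 in DF, 93 and 156 in DP and 31.2 to 60.0 in the other 3 populations. It was 5.71-fold higher in DF (log2 2.51 ± 0.17, adjusted p = 1.58e-07). Smooth muscle and pericyte markers were also highest in DF, with a summed signal over 7 genes of 23555 and 24862 in DF, 3630.2 and 5987 in DP, 3329.6 and 4458 in ORS and 316 to 393 in Mx and Mc, and 5 of 5 tested were higher in DF. Striated muscle markers were dim everywhere (0 of 10 tested), with Acta1 at 31.8 and 46 and Ckm at 38.6 and 48.8 in DF. The part of these cells in the level of Hspb2 was not tested.

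J-domain proteins of the cytosol and nucleus moved in different directions, and 4 of 12 tested differed among populations, against 70.4% of all tested genes. Dnajb4 was high in DF and low in Mx, with 518 and 593 in DF, 395 and 425 in DP, 364 and 203 in ORS, 135 and 149.9 in Mc and 100 and 52.7 in Mx. Every population stood apart from its neighbors in this order. It was 2.47-fold higher in DF (adjusted p = 0.000192) and 2.92-fold lower in Mx (3.11e-05), both under all 18 alternatives, while calls as higher in DP (0.00605) and lower in Mc (0.00697) were lost without DP replicate 2 (0.0748) and Mc replicate 1 (0.0733). The smooth muscle and pericyte sums given above are highest in DF here too. Dnajc9, which also carries histones, was high in Mx and ORS and lowest in DP, as were the S phase genes. Its signals were 867 and 635 in Mx, 820 and 610.1 in ORS, 449.8 and 341 in DF, 374 and 333 in Mc and 269 and 231 in DP. It was higher in Mx (log2 0.82 ± 0.17, adjusted p = 0.00146) and ORS (0.74, 0.00475; 0.122 without ORS replicate 1) and lower in DP (-0.93, 0.00106), the only one of the 16 DP calls that held under all 18 alternatives.

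Other J-domain genes moved little. Dnajb6, an inhibitor of protein aggregation with a heat shock element of 3 units, was lower in Mc at 509 and 385 (log2 -0.58 ± 0.18, adjusted p = 0.0192), a call lost without Mc replicate 2 (0.262) and not shared by a second tested probe-set (log2 -0.13). Dnaja1, the constitutive partner of HSP70, fell in Mc to 948 and 757 (log2 -0.46 ± 0.17, adjusted p = 0.0413), and was no longer called in 12 of the 18 alternatives, with adjusted p of up to 0.368 (without Mc replicate 2). Dnajb2 was lower in DF at 109 and 124 (adjusted p = 0.0272), lost without either DF array (up to 0.202), and higher in Mx at 215 and 301 (0.0233), lost without Mx replicate 2 (0.219). Dnajb2 passed the signal bound of 200 in Mx alone. The members with the smallest range of population means were Dnajc7 (0.32 log2), Dnajc30 (0.40) and Dnajc14 (0.44), although Dnajc7 went from 348 to 706 between the 2 Mx arrays alone.

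**Figure D5:**
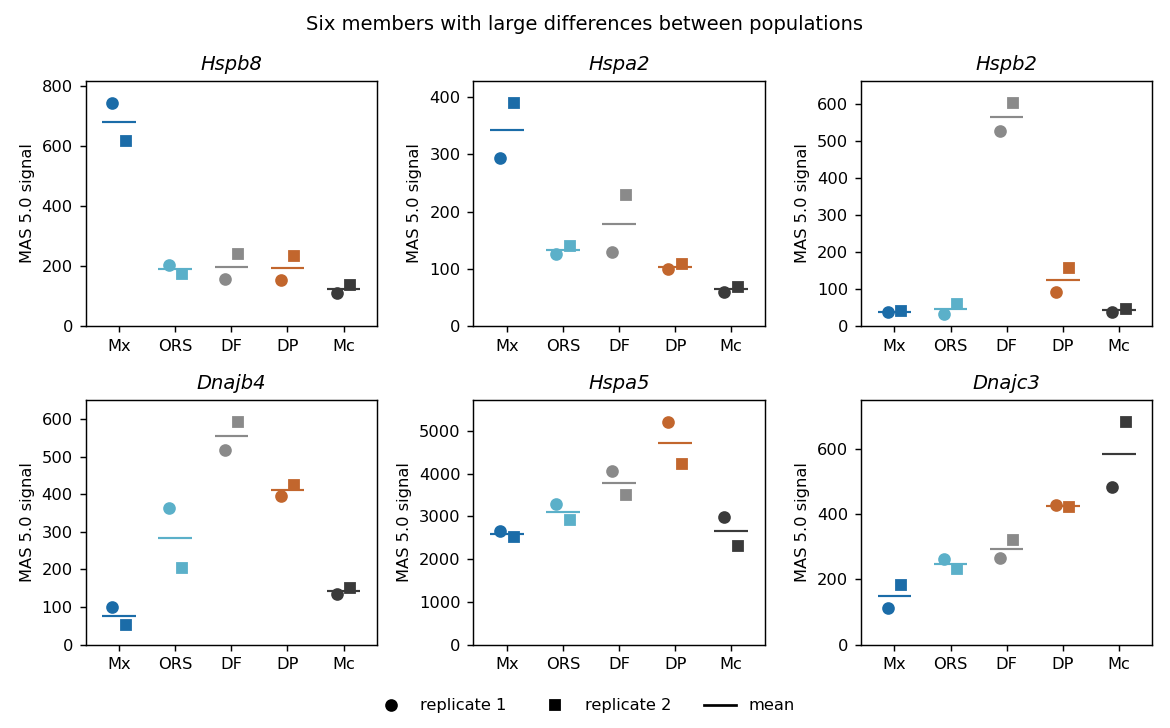
MAS 5.0 signal (linear, from 0) of 6 members in each population; circles are replicate 1, squares replicate 2 and lines the mean of the 2. Hspb8 and Hspa2 are highest in Mx, Hspb2 and Dnajb4 in DF, Hspa5 in DP and Dnajc3 in Mc.

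Between the 2 epithelial populations 2 members were higher in Mx than in ORS (4.27% of all tested genes) and 1 lower (15.6%). Hspb8 was 3.05-fold (adjusted p = 0.000235) and Hspa2 2.13-fold higher (0.0037), and Dnajb4 2.61-fold lower in Mx (0.00142). All 3 calls held under all 18 alternatives, while 12 members were called without Mx replicate 2, and the split after rescaling was 4 higher and 1 lower. Between the 2 mesenchymal populations none was higher in DP than in DF (7.92%) and 2 were lower (11.8%). Hspb2 was 3.57-fold lower in DP (adjusted p = 5.94e-05), and within the chip lots its log2 difference was -2.01 in one lot and -1.66 in the other. Hspb1 was 2.35-fold lower (0.00766), at -1.07 in one lot and -1.40 in the other, and lost its call without DF replicate 1 (0.0746) or DP replicate 2 (0.102). After quantile normalization 2 members were higher in DP and 2 lower.

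Among partners outside the family, cochaperones of HSP70 and HSP90 were more often higher than lower in Mx. Of 11 tested, 7 differed among populations (70.4% of all tested genes). In Mx 5 were higher (22.2%) and 1 lower (34.8%), and 4 were lower in DP (16.6%). Fkbp4, a prolyl isomerase of the HSP90 complex, had 442 and 349.6 in Mx, 368 and 266 in ORS and 125 to 187 elsewhere (log2 0.91 in Mx, adjusted p = 0.000345). Ahsa1, which activates the ATPase of HSP90, had 1331 and 939 in Mx and 531 and 482 in Mc (log2 0.78 and -0.56, adjusted p = 0.0017 and 0.0163). Stip1, which links HSP70 to HSP90, was higher in Mx (0.45, 0.013) and ORS (0.42, 0.0294). Of the factors that control heat shock genes 3 were on the array, Hsf2 and Hsf4 reached at most 15.8 and 60.1, and Hsbp1, a binding partner of heat shock factor 1, did not differ (F test, adjusted p = 0.632).

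Of 17 other tested chaperones 10 differed (70.4% of all tested genes), 8 were higher (22.2%) and 4 lower (34.8%) in Mx. Serpinh1, the collagen chaperone, had 2881 and 2615 in DF, 1516 and 1969 in DP and 172 and 201 in Mx. Cryab, the small heat shock protein of the lens that neighbors Hspb2 in the genome, had 627 and 701 in DF, 178 and 207 in ORS, 119 and 212 in DP and 4 and 1.4 in Mc. It was 5.97-fold higher in DF (adjusted p = 1.05e-07), the population in which Hspb2 was also highest. Grpel1, the exchange factor of Hspa9, was higher in Mx (0.76, 0.00142) and lower in DP (-0.59, 0.0116). Of 7 tested genes of the unfolded protein response 6 differed (70.4%), 4 were lower (34.8%) and 1 higher (22.2%) in Mx. Xbp1, its transcription factor, was highest in DF at 2201 and 1682 (0.80, 0.0016), whereas Sdf2l1 was highest in Mc at 444 and 447 (1.08, 0.000138). Atf3, also an immediate early gene, had 1555 and 1576 in ORS, 1626 and 1527 in DF, 139 and 170.1 in DP and 81.3 and 108 in Mc.

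The 25 members that were not tested included 12 J-domain genes of the cytosol and nucleus and 3 genes each of the constitutive, mitochondrial, endoplasmic reticulum and small heat shock protein groups, with Cct6b. Their highest signal on any array ran from 2.5 (Hspa1l) to 250.3 (Dnajc1). Hspa12b had 96.5 and 87.6 in DF, 47.8 and 70.3 in DP and 3.2 or less in Mx, ORS and Mc, and endothelial markers were highest in DF as well (4920 and 3674 over 8 genes, against 162 to 306 elsewhere). The highest signal on any array was 115 for Dnajb5 and 83.9 for Hspb7. Hspa4l, an HSP110 protein, was highest in ORS at 171 and 206, with 62.4 to 115 in the other populations.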

How the data were processed

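RNA from each sorted population was amplified and hybridised by the authors to Affymetrix MOE430A arrays, 2 per population. The deposited values are intensities on a linear scale, MAS 5.0 signals that the authors scaled per array. The deposited experiment files gave the chip lot as another descriptor, with no expression value. Of 22690 probe-sets 64 controls were left out, and 20380 of 22626 named 1 gene. For a gene with several probe-sets the brightest on average was used. Population means were fitted with limma 3.58.1 (R 4.3.3) to log2(signal + 50), without a block, where both arrays of a population reached 200, and p was adjusted by Benjamini-Hochberg over all probe-sets tested. The script was tested on simulated data. Tables and figures used Python 3.11.15, pandas 2.3.3, numpy 2.4.6 and matplotlib 3.10.9.

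The members and lists were chosen with earlier results of these data known. Named were the stress-inducible genes with their partners, up to 4 genes per group and 3 per partner list by F statistic, the 3 largest differences each way in a comparison, and the 3 flattest members. Hsp90b1, Hspa1l, Hspa14, Cct4, Cct6a, Cct6b, Cct7, Hspa12b, Hspa4l, Hspb7, Dnajb5, Dnajc1, Hsf2, Hsf4, Fos, Acta1 and Ckm were named after their values were seen. Per the methods the purification and the hybridisation were both done in duplicate, so precision is limited by 2 arrays per population. Alternatives were 2 other pseudocounts, other signal bounds, 2 scalings, chip lot or replicate block, and each array left out. Hsp90ab1 was not analysed here, nor were 2 probe-sets of Dnajc19 that name several genes.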

Additional observations from a re-analysis of the deposited data

How the results depend on the processing

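Of 78 calls of members, 30 held under all 18 alternatives, 14 of 25 in Mx, 8 of 17 in Mc, 2 of 8 in DF, 1 of 16 in DP and 1 of 7 in ORS. Leaving out each array in turn gave 25 to 34 members that differed among populations (31 with all arrays), 19 to 29 called for Mx (25), 3 to 9 for ORS (7), 2 to 8 for DF (8), 3 to 20 for DP (16), 10 to 21 for Mc (17), 3 to 12 in Mx over ORS (3), 1 to 3 in DP over DF (2) and 2 to 3 at least 2-fold above every other population (2). In ORS 11 were called with a signal bound of 100 and 13 with none, and in Mx over ORS 5 and 7, where more genes were tested. Rescaling gave 5 in Mx over ORS and quantile normalization 4 in DP over DF, and the cause was not tested. With the replicate block 34 differed, and the counts of calls were 31 for Mx, 11 for ORS, 9 for DF, 20 for DP, 21 for Mc, 6 in Mx over ORS and 5 in DP over DF. Replicate differences of populations correlated at -0.0456 to 0.34, so the numbers were not taken to pair the arrays. Without Mc, an alternative chosen after seeing the data as were the values within chip lots, 23 members differed. Among 47 tests of other probe-sets 33 gave the same call, 13 did not pass, and the difference of Cct3 in DP reversed to 0.0112 on the log2 scale (adjusted p = 0.962). Where the brightest probe-set was not called, another one was in 14 tests of 10 genes, among them Hsp90aa1, Hspe1, Hsp90b1 and Cct7. The 25 members under the bound were tested only with the lower bound or none, and 2 arrays per population limit all counts.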
